A study of Mus musculus with 30 samples.

Results

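Tumors of wild type (WT) mice given both anti-PD1 and agonist anti-CD40 antibodies were compared with tumors of WT mice given a control rat IgG2A antibody. The 8 libraries were chosen by their labels alone, 3 for the combination and 5 for the control, of 30 in the whole series. B16F10 melanoma cells, a pigmented line from C57BL/6 mice that T cells infiltrate poorly, were injected under the skin of female C57BL/6 mice at 250000 cells per mouse. From day 7 of growth the mice received, 2 times a week, either 0.25 mg of each of the 2 antibodies together or the IgG2A control; the labels call the anti-CD40 antibody an ascites preparation and the anti-PD1 antibody purified. Both groups carry the genotype ARE-del +/+, read here as 2 normal alleles. The other libraries come from WT mice given anti-PD1 (4 libraries) or anti-CD40 (3 libraries) alone, and from heterozygous ARE-del +/- (HET) mice on the same antibodies, a line whose series title concerns interferon gamma levels and autoimmunity. Whole tumors were frozen and their RNA was extracted, so each value mixes tumor and host cells.

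PD-1, encoded by Pdcd1, is a receptor on activated T cells that dampens their signalling when it binds PD-L1 (Cd274) or PD-L2 (Pdcd1lg2), and antibodies that block it release that brake. CD40 is a TNF receptor family member on dendritic cells, macrophages and B cells, and an agonist antibody stands in for the ligand that helper T cells carry, driving antigen presentation and cytokine release. T cells that are active in a tumor release interferon gamma, whose target genes in tumor and host cells include antigen presentation genes and T cell-attracting chemokines such as Cxcl10.

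The deposited values are on a log2 CPM scale (counts of a gene relative to library depth), from which whole reads could be recovered; CPM is used below for single libraries, in the order of the replicate numbers. Combination libraries held 21057622 to 27610561 reads in genes and IgG libraries 17612565 to 22630431 reads, so that depth moved with the groups, and 1 read was worth 0.0351 to 0.0466 CPM in the combination and 0.0442 to 0.0566 CPM in the IgG libraries. Mitochondrial transcripts took 1.77 to 2.08% of reads in the combination libraries and 1.32 to 2.80% in the IgG libraries. All 3 combination libraries carry L number 6 in their labels and all 5 IgG libraries L number 5, a number the labels do not explain, so the antibodies and whatever that number marks cannot be told apart. IgG replicate 1 stood apart with high skin gene levels, and IgG replicate 4 with high blood cell gene levels. Nothing in the labels says that the replicates are separate animals. Each limma p-value reflects the spread between libraries within the groups of the whole series, which may be technical. In whole tumors, fewer cells of a type and less RNA per cell cannot be told apart.

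The combination and IgG tumors could not be separated gene by gene in WT hosts. Of 15002 genes tested with limma in a fit over all 30 libraries, 0 (0.0%) passed a Benjamini-Hochberg adjusted p of 0.05, and a fit with limma's voom weights on the recovered reads also called 0. At an unadjusted p under 0.05, limma found 62 genes (0.413%), 32 of them higher (0.213%) and 30 lower (0.2%) after the combination, and voom found 54. The log2 difference, combination minus IgG, was above 0 for 7472 genes (49.8%) and its median over all genes was -0.00055. Its absolute size had a median of 0.11, against a median standard error of 0.27, and it exceeded 1 for 181 genes (1.21%). In 219 genes (1.46%) the 2 groups did not overlap. Every combination library lay above every IgG library for 81 genes (0.54%) and below for 138 genes (0.92%). With labels set at random, a gene without ties would separate the groups in either direction with probability 0.0357. The 219 genes were fewer than that share, so lack of overlap alone does not mark a gene as different. The 62 genes at an unadjusted p under 0.05 were also fewer than the share of 0.05 given by genes without a difference. Since no gene passed, the genes below are described by their values and none is reported as changed.

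**Figure D1:**
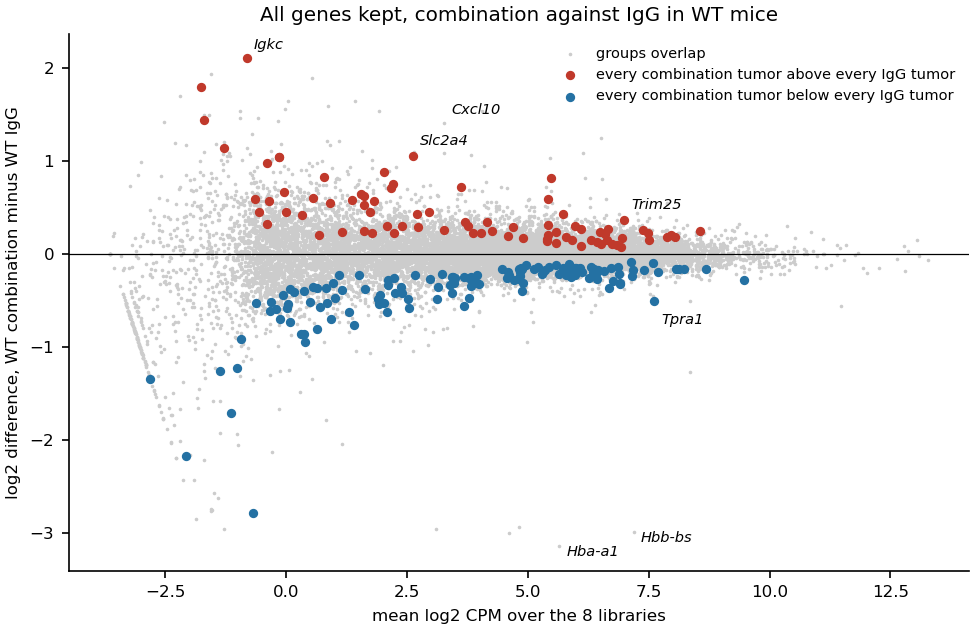
Mean log2 CPM over the 8 libraries (x axis) against the log2 difference, WT combination minus WT IgG (y axis), for 15002 genes. Red points are the 81 genes with every combination library above every IgG library, blue points the 138 with every one below, and grey points the rest; hemoglobin genes lie lowest among abundant genes and Igkc is the highest non-overlapping gene.

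The genes that the antibodies bear on were scarce or alike in the 2 groups. Ifng, encoding interferon gamma, had 0, 0 and 2 reads in the combination libraries, against 0 reads in each of the 5 IgG libraries (two-sided exact permutation test p = 0.75; the smallest p that 3 against 5 allows is 0.0357). Pdcd1 had 3, 2 and 5 reads in the combination tumors, against 6, 0, 0, 3 and 2 reads in the IgG tumors. Both genes were thus at the edge of detection at this depth, and 3 reads are the limit that a count of 0 allows in any library.

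Cd274, the ligand of PD-1, was measured well, at 27.2, 32.0 and 28.6 CPM in the combination tumors, against 13.6, 32.7, 27.0, 27.6 and 38.5 CPM in the IgG tumors. Only IgG replicate 1 lay far below the others, and the log2 difference was 0.15 ± 0.36 (SE; limma adjusted p = 1), or -0.09 without that library. Pdcd1lg2 had 2, 0 and 6 reads in the combination libraries, against 0, 1, 0, 2 and 2 reads in the IgG libraries (exact permutation p = 0.607). Cd40 itself had 7, 13 and 15 reads after the combination, against 13, 9, 4, 12 and 9 reads after IgG, with a log2 difference of 0.03 ± 0.55 (SE). Its ligand gene Cd40lg was not analysed here.

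The largest differences without overlap, among genes with a mean log2 value of at least 2, began with Slc2a4, which encodes the insulin-regulated glucose transporter of muscle and fat. It lies at chr11:69942539-69948188 on the minus strand of GRCm38 and measured 6.71, 11.1 and 11.9 CPM in the combination tumors, against 4.73, 5.40, 4.70, 3.51 and 4.92 CPM in the IgG tumors. The lowest combination tumor stood above the highest IgG tumor, and the log2 difference was 1.05 ± 0.50 (SE; limma unadjusted p = 0.0471, adjusted p = 1). With L number as a factor, which only the WT anti-PD1 tumors inform, it was -0.08. The skeletal muscle list had 6 of 18 members higher, a median of -0.10 (0.46 with 15 of 18 higher without IgG replicate 1, and 0.40 with 14 of 18 without combination replicate 1) and scores, the mean log2 value of the members, of -1.41 to 1.20 in the combination against -1.44 to 2.17 in the IgG tumors.

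The next genes are given by what they encode. Trim25, a ubiquitin ligase that acts on the viral RNA sensor RIG-I, measured 147, 147 and 149 CPM in the combination tumors, against 107, 132, 112, 108 and 119 CPM in the IgG tumors. The 3 combination values lay within a few CPM of each other and above the whole IgG range, with a log2 difference of 0.36 ± 0.17 (SE; limma unadjusted p = 0.0416, adjusted p = 1). Ifi35, an interferon-induced protein, measured 55.0, 59.7 and 51.3 CPM after the combination, against 46.9, 35.0, 37.0, 25 and 43.0 CPM after IgG, a log2 difference of 0.59 ± 0.28 (SE; limma unadjusted p = 0.043). Batf, a transcription factor of activated T cells and of dendritic cell development, stood at 6.94, 8.67 and 7.94 CPM in the combination tumors, against 6.02, 6.46, 5.21, 6.41 and 4.92 CPM in the IgG tumors. Its log2 difference was 0.43 ± 0.24 (SE), and its groups came within 1 CPM of touching.

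Gimap9, of a family of GTPases known from lymphocytes, was at 6.20, 6.04 and 6.75 CPM in the combination tumors, against 5.01, 5.31, 1.76, 5.46 and 2.75 CPM in the IgG tumors. Phf11d, a PHD finger gene with close paralogs between which reads may be split, measured 5.54, 5.75 and 6.5 CPM after the combination, against 2.11, 2.70, 4.98, 2.45 and 4.60 CPM after IgG. In both genes the IgG tumors were spread more widely than the combination tumors. Abca12, a lipid transporter that skin cells need for their barrier, had 53.7, 62.3 and 78.4 CPM in the combination tumors, against 47.1, 38.9, 22.8, 45.7 and 33.0 CPM in the IgG tumors (log2 difference 0.82 ± 0.38 SE; limma unadjusted p = 0.0394). The keratinocyte list, given below, had a negative median.

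Arid5b, a DNA-binding regulator of fat and muscle genes, owed much of its log2 difference of 0.71 to IgG replicate 1: it had 13.7, 18.7 and 17.8 CPM after the combination, against 4.27, 12.6, 12.5, 11.4 and 13.5 CPM after IgG. The basement membrane collagen gene Col15a1 had a log2 difference of 0.43, with 59.4, 59.4 and 74.8 CPM in the combination tumors against 35.0, 55.8, 58.9, 54.3 and 39.3 CPM in the IgG tumors. Nwd1, Nhsl1 and Syde2 completed the 12, at log2 differences of 0.71, 0.45 and 0.35. Syde2 was at -0.06 with L number as a factor.

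**Figure D2:**
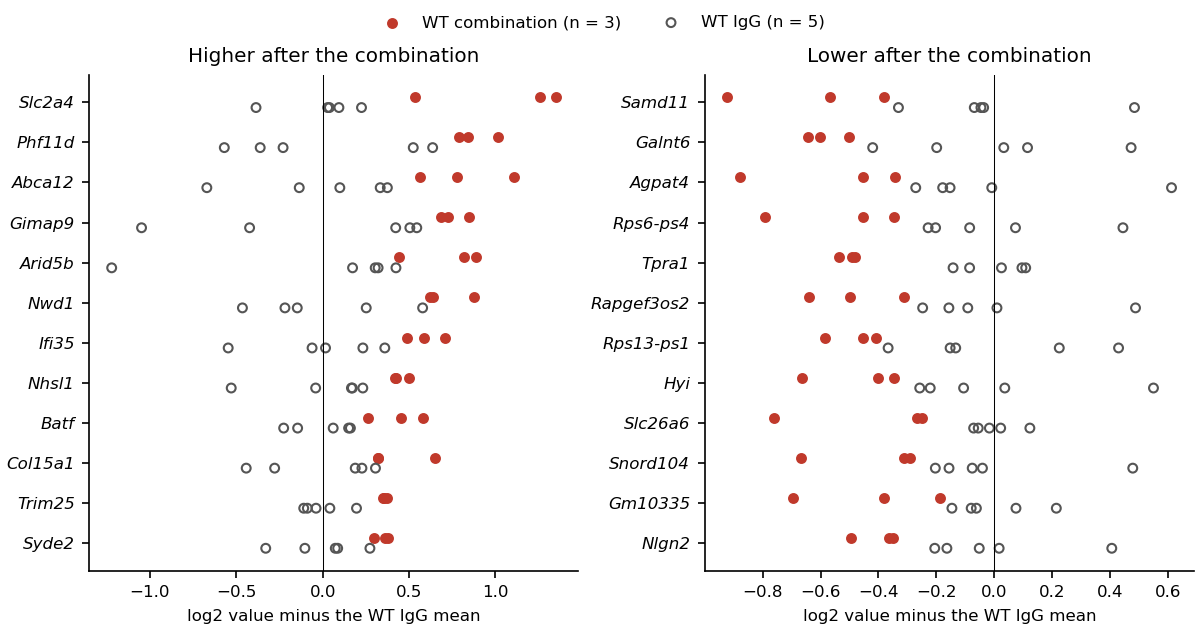
Log2 value in each library minus the mean of the WT IgG libraries (x axis) for the 12 highest (left) and 12 lowest (right) genes whose groups do not overlap. Filled red points are the 3 WT combination libraries and open points the 5 WT IgG libraries; combination points lie close together for Trim25, Phf11d and Tpra1, while IgG points spread widely.

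Lower after the combination by the same rule, Tpra1 was the most abundant of its 12 and encodes a transmembrane protein found in fat cells. It lies at chr6:88902251-88912238 on the plus strand of GRCm38 and measured 158, 159 and 153 CPM in the combination tumors, against 226, 209, 237, 239 and 201 CPM in the IgG tumors. The gap between the groups was wider than the range within either, and the log2 difference was -0.50 ± 0.22 (SE; limma unadjusted p = 0.0285, adjusted p = 1). Agpat4, an acyltransferase of phospholipid synthesis, had 11.6, 8.02 and 10.8 CPM after the combination, against 22.7, 12.2, 13.3, 13.1 and 14.7 CPM after IgG (log2 difference -0.56 ± 0.27 SE; limma unadjusted p = 0.0494). Slc26a6, an anion exchanger, had 9.92, 10.05 and 7.03 CPM in the combination tumors, against 12.1, 11.8, 11.5, 11.4 and 13.02 CPM in the IgG tumors. Its 5 IgG values were nearly level, and the log2 difference was -0.42 ± 0.22 (SE).

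Samd11 had the most negative log2 difference of these 12, -0.62 ± 0.54 (SE), with 3.31, 3.77 and 2.57 CPM in the combination tumors against 3.91, 4.78, 4.70, 4.81 and 6.93 CPM in the IgG tumors. Galnt6, an enzyme that starts mucin-type sugar chains, was at -0.58, and at 0.05 with L number as a factor. Hyi, named for hydroxypyruvate isomerase, was at -0.47 and Nlgn2, a neuroligin of inhibitory synapses, at -0.40. Of the other 5, Rps6-ps4, Rps13-ps1 and Gm10335 are annotated as processed pseudogenes, Snord104 as a small nucleolar RNA and Rapgef3os2 as antisense to Rapgef3, and their log2 differences ran between -0.53 and -0.42. Reads of such pseudogenes may belong to the genes they copy, and Rps6-ps4 turned to 0.27 with L number as a factor. IgG replicate 1 was the highest library for Agpat4, Hyi, Rapgef3os2, Rps6-ps4, Rps13-ps1, Gm10335 and Snord104. Whether strand was used in counting is not given in the sources used here, so reads of Samd11, Galnt6, Hyi, Ifi35 and Rapgef3os2 cannot be told apart from those of genes that overlap them on the other strand.

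By the smallest unadjusted p, the genes higher after the combination were Cercam, Abhd15, Wdr63, Gstp2 and Gimap9. Cercam, a cell adhesion molecule gene of brain vessels, had 3.91, 7.78 and 8.29 CPM in the combination tumors, against 2.25, 4.42, 2.49, 3.41 and 5.19 CPM in the IgG tumors (log2 difference 0.89 ± 0.29 SE; limma unadjusted p = 0.00495, adjusted p = 1). Its groups overlapped through combination replicate 1. Wdr63, of the dynein arms of cilia, had 0.885, 1.17 and 1.19 CPM after the combination, against 0.551, 0.442, 0.396, 0.551 and 0.635 CPM after IgG, with no overlap at this low level. Abhd15 and Gstp2, a pi-class glutathione transferase with a near copy next to it, were at 1.04 ± 0.35 and 0.58 ± 0.23 (SE). On the lower side stood, among others, Gm22405, Kifc3, Cxcr2 and the pseudogene Dynlt1-ps1. Kifc3, a kinesin motor, had 98.7, 91.7 and 95.8 CPM in the combination tumors, against 142, 103, 117, 101 and 128 CPM in the IgG tumors (log2 difference -0.30 ± 0.11 SE; limma unadjusted p = 0.0154). Gm22405 was at -1.71 ± 0.58 (SE) on 34 reads or fewer per library, and Dynlt1-ps1 at -0.80 ± 0.32 (SE), or 0.52 with L number as a factor.

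Genes that type I interferon induces were mostly a little higher after the combination, but no member stood clear of the IgG tumors. Of 29 listed, 28 were tested, 27 were higher (over all genes 49.8%), the median log2 difference was 0.27, 0 had an unadjusted p under 0.05 in limma and 0 had groups that did not overlap. The list score was 4.49, 4.59 and 4.52 in the combination tumors, against 3.81, 4.23, 4.47, 3.87 and 4.59 in the IgG tumors. IgG replicates 3 and 5 thus matched the combination tumors, while IgG replicates 1 and 4, the libraries rich in skin and blood genes, lay lowest. Without those 2 libraries 21 of 28 members were higher and the median was 0.09. Their part in the result beyond that was not tested.

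Ifit1, which binds viral RNA, had 20.6, 28.1 and 24.0 CPM in the combination tumors, against 13.6, 15.6, 21.6, 8.46 and 29.6 CPM in the IgG tumors. Ddx58, the RIG-I gene, had 49.9, 54.6 and 49.3 CPM after the combination, against 21.7, 41.7, 51.4, 26.4 and 48.7 CPM after IgG. Both genes showed the list's split among the IgG tumors, with log2 differences of 0.56 ± 0.49 and 0.51 ± 0.39 (SE). Isg15, a ubiquitin-like modifier, was at 0.22 ± 0.36 (SE) and Bst2, which tethers budding virus, at 0.23 ± 0.35 (SE). Ifi27, the most abundant member, had 320, 294 and 309 CPM in the combination tumors, against 280, 303, 326, 212 and 341 CPM in the IgG tumors. Rsad2, the antiviral enzyme viperin, was the 1 member below 0, at -0.18, and was at 0.45 with L number as a factor.

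Interferon gamma responsive genes gave a like picture. Of 28 members tested 24 were higher (over all genes 49.8%), and the median log2 difference was 0.26. Without IgG replicates 1 and 4, 16 of 28 were higher and the median was 0.02. Only 1 member was higher at an unadjusted p under 0.05 in limma (over all genes 0.213%). That 1 gene was Cxcl10, a chemokine that attracts T cells through Cxcr3. It measured 16.4, 12.2 and 27.5 CPM in the combination tumors, against 7.12, 6.01, 4.81, 12.5 and 4.97 CPM in the IgG tumors, and only IgG replicate 4 reached into the combination range. The log2 difference was 1.40 ± 0.64 (SE; limma unadjusted p = 0.0373, adjusted p = 1). Irgm1, a GTPase of cell-autonomous defence, had 87.9, 91.7 and 91.9 CPM after the combination, against 64.9, 58.0, 102, 39.5 and 130 CPM after IgG, and its log2 difference of 0.32 was -0.02 without IgG replicates 1 and 4. Wars, a tRNA synthetase induced by interferon gamma, was at -0.13 ± 0.16 (SE), and at 0.08 with L number as a factor. With that factor the medians were 0.99 for the type I and 2.27 for the interferon gamma list, on the strength of the single WT anti-PD1 tumor with L number 6.

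Interferon-activated transcription factors of the STAT and IRF families act through short elements in promoters. The core of the interferon-stimulated response element, GAAA followed after any 2 bases by GAAA, was searched on both strands from 250 bases before to 50 after each start site in RefSeq promoters of GRCm38.p6, and 3.99% of 27025 genes held it. In the type I list 10 of 19 genes with a promoter in the table held it (52.6%), in the interferon gamma list 11 of 19 (57.9%), and in the proliferation list 1 of 23. Among genes whose groups did not overlap it was found in 3 of 54 higher genes (Eif2s3x, Rab19 and Suclg2) and 0 of 84 lower genes. The promoters of Trim25, Ifi35, Phf11d and Gimap9 held no match in this window. A match is a description of letters, not of binding. Matches in Ddx58 and Rsad2, also described above, are not shown. The 5 stretches below belong to other interferon genes described above, with the match in capitals. They lie at chr5:92349083-92349112 (Cxcl10, minus strand), chr19:34640775-34640804 (Ifit1, minus strand), chr4:156200871-156200900 (Isg15, minus strand), chr8:71537577-71537606 (Bst2, minus strand) and chr11:48871425-48871454 (Irgm1, minus strand). Isg15 holds 2 further matches and Bst2 and Irgm1 another match each, all overlapping the one shown, and Ifit1 holds another that does not overlap it.
Cxcl10: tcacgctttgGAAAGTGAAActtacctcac
Ifit1: actgagactgGAAAGTGAAActgaagcctg
Isg15: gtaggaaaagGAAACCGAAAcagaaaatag
Bst2: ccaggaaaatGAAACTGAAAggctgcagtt
Irgm1: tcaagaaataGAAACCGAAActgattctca

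Antigen presentation genes differed little. The MHC class I list had 14 of 20 members higher and a median of 0.09, which was -0.01 without combination replicate 2 or without IgG replicate 2. The MHC class II list had 2 of 9 higher and a median of -0.09. Its direction turned with single libraries, to 6 of 9 higher without IgG replicate 1, 7 of 9 without IgG replicate 4 and 5 of 9 (median 0.30) without combination replicate 1. Cd74, the invariant chain that chaperones class II molecules, had 5.64, 8.95 and 19.6 CPM in the combination tumors, against 19.6, 3.80, 8.32, 18.9 and 11.6 CPM in the IgG tumors. Its groups shared almost the same range, and its log2 difference of -0.09 ± 1.06 (SE) was 0.47 without IgG replicates 1 and 4. The protease Ctss, which trims that chain, was at 0.07 ± 0.70 (SE). The CD40 and NF-kB list, the signalling chain below the CD40 receptor, had 12 of 21 members higher, a median of 0.02 and scores of 4.02 to 4.13 in the combination against 3.91 to 4.27 in the IgG tumors. Genes of activated antigen presenting cells had 9 of 12 higher with a median of 0.26, dendritic cell genes 7 of 9 with 0.18, checkpoint genes 9 of 12 with 0.18 and cytokine and chemokine genes 6 of 19 with -0.26. Leaving out 1 library brought these 4 medians as near to 0 as 0.04 (IgG replicate 3), 0.01 (combination replicate 3), 0.08 (IgG replicate 1) and -0.01 (IgG replicate 4), and the CD40 and NF-kB median to -0.01 (combination replicate 3). None of these lists had a member with an unadjusted p under 0.05, and their scores overlapped between the groups.

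T cell transcripts stayed scarce in all 8 tumors. Of 23 T cell genes listed only 7 passed the filter on low values, 6 of them higher, with a median log2 difference of 0.25, and of 14 cytotoxic and natural killer genes 4 passed, all higher, with a median of 0.52. Because a gene could pass the filter through other groups of the series, these counts carry no weight for the lists as a whole. Thy1, a surface protein of T cells and of fibroblasts, had 6.89, 14.5 and 19.0 CPM in the combination tumors, against 12.8, 9.91, 3.62, 19.0 and 6.56 CPM in the IgG tumors. Ccl5, a chemokine of cytotoxic cells, had 1.49, 1.5 and 2.95 CPM after the combination, against 1.88, 0.575, 1.70, 0.801 and 1.96 CPM after IgG. Nkg7, of cytotoxic granules, stayed at or below 0.316 CPM in the combination and 0.322 CPM in the IgG tumors. Tnfrsf18, the costimulatory receptor GITR of regulatory T cells, ran the other way without overlap, at 0.186, 0.203 and 0.246 CPM after the combination against 1.56, 0.486, 0.340, 0.651 and 0.423 CPM after IgG; it was named after its values were seen and was at 0.25 on the log2 scale with L number as a factor.

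Among immunoglobulin transcripts, all at very low levels, Igkc and Ighg2c were higher without overlap (over all genes 0.54%). The 4 tested, these and Ighm and Igha, each exceeded a log2 of 0 in fewer than 3 of the 8 libraries compared. They thus needed libraries of other groups to pass the filter, and their count carries no weight for immunoglobulin genes as a whole. Igkc, the kappa light chain constant gene of B and plasma cells, had 16, 27 and 81 reads in the combination libraries, against 14, 3, 1, 4 and 11 reads in the IgG libraries. In CPM the groups did not overlap, and the log2 difference was 2.10 ± 1.03 (SE; limma unadjusted p = 0.0524, adjusted p = 1). Ighg2c, a heavy chain constant gene picked after its values were seen, had 21, 9 and 14 reads after the combination, against 7, 2, 1, 1 and 2 reads after IgG (log2 difference 1.79 ± 0.85 SE; limma unadjusted p = 0.0443). Ighm had 0.466, 0.365 and 1.27 CPM after the combination, against 0.414, 0.265, 0.340, 0.801 and 0.317 CPM after IgG, and Igha 0.326, 0.648 and 0.597 CPM, against 0.781, 0, 0, 0.100 and 0.317 CPM. Both overlapped, through IgG replicates 1 and 4 in Ighm and IgG replicate 1 in Igha. Together these 4 of the 8 immunoglobulin constant genes in the table, those that passed the filter, had 2.52, 2.47 and 5.2 CPM in the combination tumors, against 2.16, 0.486, 0.453, 1.15 and 1.32 CPM in the IgG tumors. Over all 8 the sum was 3.03, 3.24 and 8.75 CPM after the combination, against 2.25, 0.486, 0.566, 1.35 and 1.59 CPM after IgG. Of the 4 tested members of the B and plasma cell list that are not immunoglobulin genes, 1 was higher, the B cell factor Ebf1 at 0.16 ± 0.43, and 3 were lower, among them Cd79a of the B cell receptor at -0.29 ± 0.38 (SE).

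Myeloid lists overlapped between the groups. Macrophage genes had 14 of 17 members higher with a median of 0.19, monocyte genes 6 of 10 with 0.10, Fc receptor genes 6 of 7 with 0.15 and complement genes 12 of 16 with 0.18. These directions rested on single libraries. Without IgG replicate 3, macrophage genes had 3 of 17 higher with a median of -0.14, Fc receptor genes 2 of 7 with -0.09 and complement genes 7 of 16 with -0.02. Without combination replicate 3, macrophage genes had 6 of 17 higher with -0.06, monocyte genes 0 of 10 with -0.31, Fc receptor genes 3 of 7 with -0.04 and complement genes 6 of 16 with -0.11. The monocyte median was also below 0 without IgG replicate 1 (-0.08) or 2 (-0.12), and the complement median without IgG replicate 1 (-0.01). Mast cell and basophil genes had 5 of 5 tested members higher with a median of 0.53, which was -0.06 without combination replicate 3. These genes too could pass the filter through other groups of the series, so their count carries no weight for the list as a whole. For eosinophils none of 7 listed genes passed the filter.

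Hemoglobin and other red blood cell transcripts were lower after the combination, by the largest margin of any list. Of 14 genes listed 10 were tested, all 10 were lower (over all genes 50.2%), the median log2 difference was -2.55, and 5 had an unadjusted p under 0.05 in limma, beside 0.2% of all genes. Hbb-bs, an adult beta globin, measured 120, 18.4 and 28.9 CPM in the combination tumors, against 77.9, 746, 50.8, 4258 and 260 CPM in the IgG tumors. Combination replicate 1 lay above IgG replicates 1 and 3, so the groups overlapped, and the log2 difference was -2.99 ± 1.36 (SE; limma unadjusted p = 0.0374, adjusted p = 1). The alpha globin Hba-a1 and the beta globin Hbb-bt, which share reads with near-identical copies, were at -3.14 ± 1.35 and -3.00 ± 1.37 (SE).

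The red blood cell list score was 3.08, 1.62 and 1.93 in the combination tumors, against 2.95, 4.85, 2.60, 6.82 and 3.82 in the IgG tumors. Without IgG replicate 4 the list's median was -1.61 with 10 of 10 members still lower, and 0 had an unadjusted p under 0.05 in limma. That count was also 0 with only the 15 WT libraries in the fit, with the replicate block and without IgG replicates 1 and 4. Leaving out combination replicate 2, combination replicate 3 or IgG replicate 2 gave 0 as well. It was 1 with voom and 9 with L number as a factor. Blood content was not measured apart from these transcripts, and its part in the result was not tested.

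Neutrophil genes were highest in IgG replicate 4 too, while combination replicate 1, the highest of its group for red blood cell genes, was the lowest for neutrophil genes. All 10 tested members were lower (over all genes 50.2%), with a median of -0.90. List scores were -1.27, -1.05 and 0.34 in the combination tumors, against 0.02, -0.58, -1.20, 3.09 and 1.29 in the IgG tumors. Some members, including Cxcr2, needed libraries of other groups to pass the filter. Their count thus carries no weight for the list as a whole. With the filter over the 8 libraries compared, 8 members stayed, all lower, and 0 had an unadjusted p under 0.05 in limma. With no filter, 11 of 12 were lower. Cxcr2, the chemokine receptor that brings neutrophils into tissue, had 0, 0 and 5 reads after the combination, against 8, 5, 1, 116 and 7 reads after IgG (log2 difference -2.21 ± 0.87 SE; limma unadjusted p = 0.0172, adjusted p = 1). S100a9, a subunit of calprotectin, had 0.978, 0.405 and 1.44 CPM after the combination, against 5.65, 1.5, 0.283, 17.2 and 13.9 CPM after IgG. IgG replicate 3 was below all combination tumors for S100a9, and the protease gene Mmp9 overlapped as widely, at -0.83 ± 1.13 (SE), or 0.37 with L number as a factor. Without IgG replicate 4 the list's median was -0.29 with 8 of 10 lower, and with L number as a factor it was 0.24. Platelet genes had 3 tested members, all lower, and a list score that reached 4.06 in IgG replicate 4 alone.

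**Figure D3:**
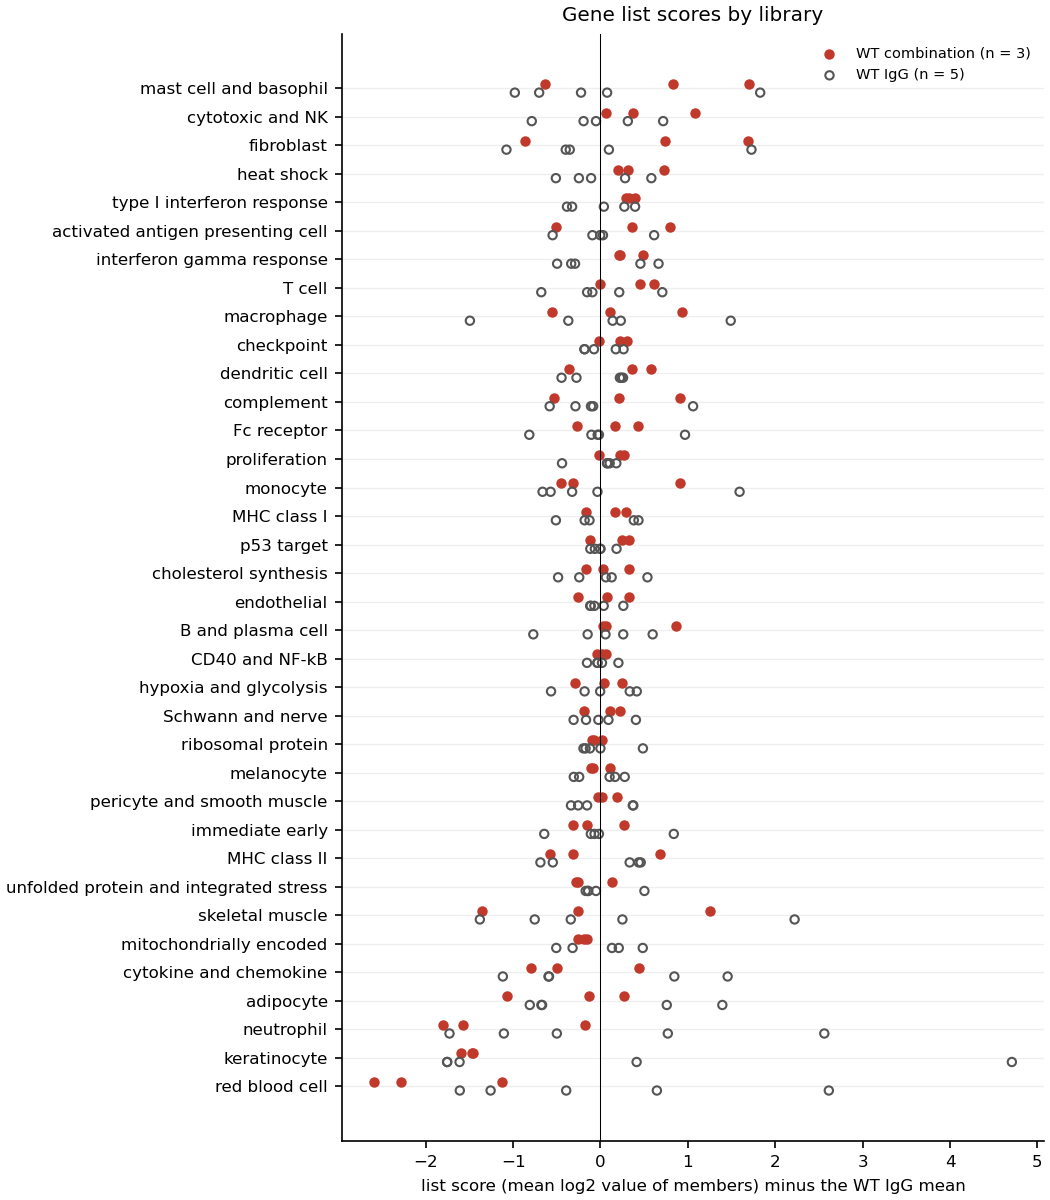
Score of each gene list, the mean log2 value of its members, in each library minus the mean of the WT IgG libraries (x axis), with lists ordered by the median log2 difference of their members. Filled red points are the 3 WT combination and open points the 5 WT IgG libraries; the combination points lie within a narrow band for the type I interferon list and overlap the IgG points for the neutrophil and keratinocyte lists, where single IgG libraries lie far to the right.

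Skin, fat and stromal genes varied widely between single libraries. The keratinocyte list had 17 of 18 members lower and a median of -1.40, with scores of -2.29, -2.42 and -2.27 in the combination tumors against 3.89, -2.57, -2.43, -2.57 and -0.40 in the IgG tumors. IgG replicates 1 and 5 were the high libraries, and without replicate 1 the median was -0.24. Most members passed the filter only through other groups of the series. With the filter over the 8 libraries compared, 4 members stayed, 3 of them lower, with a median of -0.61. Dsp, of desmosomes, was at -0.62 ± 1.13 and Sbsn, of the cornified layer, at -0.59 ± 0.63 (SE). Asprv1, a protease of the outer skin, had 2, 3 and 3 reads after the combination, against 233, 7, 6, 19 and 35 reads after IgG, and was named after its values were seen. Adipocyte genes had 2 of 11 members higher with a median of -0.36, against 8 of 11 and 0.07 without IgG replicate 1 and 6 of 11 and 0.23 without combination replicate 1.

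Fibroblast genes had 19 of 20 members higher (over all genes 49.8%) with a median of 0.51. Their scores were 2.76, 4.35 and 5.31 in the combination tumors against 3.71, 3.22, 2.54, 5.35 and 3.27 in the IgG tumors. The combination tumors thus spanned nearly the whole IgG range, and without combination replicate 3 the median was 0.07 with 12 of 20 higher. The matrix genes Sparc and Fn1 were at 0.19 ± 0.27 and 0.13 ± 0.49 (SE), and both changed sign when 1 library was left out. Endothelial genes had 11 of 18 higher with a median of 0.05, pericyte and smooth muscle genes 5 of 11 with -0.06, and Schwann and nerve genes 5 of 9 with 0.00. The endothelial median was below 0 without combination replicate 2 (-0.05) or IgG replicate 1 (-0.01), the pericyte median above 0 without combination replicate 1 (0.02) or IgG replicates 2 (0.12), 3 (0.05) or 4 (0.06) in turn, and the Schwann list had 2 of 9 higher without combination replicate 2, IgG replicate 2 or IgG replicate 4.

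Pigment cell genes, the markers of B16F10 cells, were abundant in all 8 tumors. All 16 melanocyte genes were measured, and Dct and Pmel, of pigment synthesis, averaged 9632 ± 836 and 6587 ± 358 CPM in the combination tumors, against 10137 ± 1054 and 7529 ± 835 CPM in the IgG tumors (SD, n = 3 and n = 5). The list had 6 of 16 members higher, a median of -0.05 and scores of 8.91 to 9.12 in the combination against 8.71 to 9.29 in the IgG tumors. Proliferation genes had 27 of 28 members higher (over all genes 49.8%) with a median of only 0.14, and 0 had an unadjusted p under 0.05. Mki67 had 495, 428 and 543 CPM after the combination, against 281, 519, 518, 451 and 305 CPM after IgG, and Top2a, which untangles DNA in dividing cells, was at 0.20 ± 0.26 (SE). The proliferation score was lowest in IgG replicate 5; without it 19 of 28 members were higher with a median of 0.03, and with L number as a factor 2 of 28 were higher with a median of -0.18.

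Heat shock genes were higher in 11 of 11 members (over all genes 49.8%), with a median of 0.30. The chaperone gene Hsp90aa1 had 1357, 1356 and 1866 CPM in the combination tumors, against 1062, 1611, 1098, 1498 and 977 CPM in the IgG tumors, and Hspa8 was at 0.15 ± 0.25 (SE). The groups overlapped in both, the count was 8 of 11 without combination replicate 3, and it was 6 of 11 with L number as a factor, under which Hsp90aa1 was at -0.06. Mitochondrially encoded genes had 1 of 15 members higher and a median of -0.20, and unfolded protein and integrated stress genes 3 of 18 and -0.10. Ribosomal protein genes had 6 of 28 higher with a median of -0.04, hypoxia and glycolysis genes 13 of 23 with 0.01, immediate early genes 6 of 19 with -0.06, p53 targets 7 of 14 with 0.06 and cholesterol synthesis genes 12 of 19 with 0.05. Except for the heat shock and mitochondrial lists, the medians turned or reached 0 with 1 library left out. Without IgG replicate 1, 28 of 28 ribosomal protein genes were higher (median 0.07) and 3 of 23 hypoxia and glycolysis genes (-0.12). Immediate early genes had 13 of 19 higher (0.12) without IgG replicate 5, and cholesterol synthesis genes 4 of 19 (-0.10) without combination replicate 1. The p53 median was -0.02 without IgG replicate 4 and the stress median 0.00, with 9 of 18 higher, without IgG replicate 3. Among these lists 0 members had an unadjusted p under 0.05 or groups without overlap.

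The combination tumors were more alike than the IgG tumors. The median absolute log2 difference over genes between 2 libraries was 0.175 to 0.187 for the 3 pairs of combination tumors, against 0.225 to 0.440 for the 10 pairs of IgG tumors, and the ranges did not overlap. The median SD over genes was 0.158 in the combination and 0.306 in the IgG group, and 81.4% of genes (12208) varied less in the combination group. Leaving out each IgG library in turn, that share was 72.5 to 80.2%. An SD over 3 libraries tends to fall below an SD over more libraries even at equal spread. The SDs and shares were not corrected for that. Restricted to 6285 abundant genes, with a mean log2 value of at least 5, the pairs of combination tumors differed by 0.116 to 0.133 and the pairs of IgG tumors by 0.162 to 0.364. Combination libraries were also deeper, and the part of depth in this difference was not tested. Pairs of libraries share members, so no test was made.

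In the other WT groups the libraries lay farther apart, with a pair median of 0.372 for anti-PD1 and 0.535 for anti-CD40, which has 3 libraries as the combination has. HET combination tumors had a pair median of 0.323 over 6 pairs, and HET anti-PD1 tumors, with 3 pairs from 0.159 to 0.3, came closest to the WT combination. A single pair of WT anti-PD1 tumors, at 0.175, was as close as the combination pairs.

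**Figure D4:**
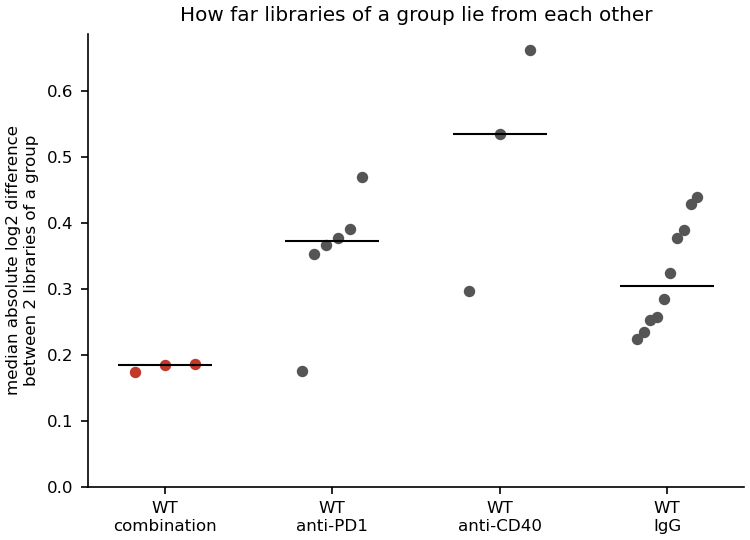
Median absolute log2 difference over 15002 genes between 2 libraries of a group (y axis, from 0), one point per pair, for the 4 WT groups. Bars are medians over the pairs; the 3 WT combination pairs, in red, lie between 0.175 and 0.187 and the 10 WT IgG pairs between 0.225 and 0.440.

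Set against single antibodies in WT hosts, the combination again gave no gene past adjustment. Against anti-PD1 alone, limma called 0 of 15002 genes (0.0%) and found 281 (1.87%) at an unadjusted p under 0.05, 122 higher (0.813%) and 159 lower (1.06%). Against anti-CD40 alone, whose tumors all carry L number 6 as the combination tumors do, it called 0 (0.0%) and found 799 (5.33%), 326 higher (2.17%) and 473 lower (3.15%). That count and its direction depended on the fit, with 95 higher and 32 lower when keratinocyte and muscle scores were covariates, and 106 higher and 24 lower with library weights. These comparisons share the combination libraries with the one against IgG, so the values stand side by side. Trim25 averaged 148 CPM after the combination, 133 CPM after anti-PD1, 121 CPM after anti-CD40 and 116 CPM after IgG. Slc2a4 averaged 9.91, 5.54, 7.38 and 4.65 CPM in the same order, and Ifi35 55.3, 42.7, 43.4 and 37.4 CPM. The mean keratinocyte score was -2.33 ± 0.08 after the combination and 2.47 ± 3.81 after anti-CD40 (SD, n = 3 in each group). The mean neutrophil score was -0.66 ± 0.88 after the combination and 1.58 ± 1.39 after anti-CD40 (SD). Cxcr2 was lower after the combination than after anti-CD40 by a log2 difference of -2.61 (limma unadjusted p = 0.0125, adjusted p = 0.606).

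The HET response was set against the WT response next. The interaction contrast, the HET response minus the WT response, called 0 of 15002 genes in limma (0.0%) and found 525 (3.5%) at an unadjusted p under 0.05, 365 of them higher in HET (2.43%) and 160 lower (1.07%). The lower genes were more numerous with voom (149 higher, 172 lower), with covariates (181 and 202) and with L number as a factor (20 and 64). List score differences between combination and IgG means were 1.93 in HET and 0.31 in WT hosts for interferon gamma genes, 2.64 and -0.07 for MHC class II, 2.24 and 0.50 for cytotoxic genes, and 1.25 and 0.16 for macrophage genes. Those differences between hosts were not tested as lists. HET combination tumors also had high skin and muscle genes on average. Their mean scores were 1.74 ± 2.62 and 3.13 ± 0.82, against -1.94 ± 1.04 and 0.52 ± 2.56 in HET IgG tumors (SD, n = 4 in each group). The L numbers of the HET combination tumors were all 8, against 6, 7, 7 and 8 in the HET IgG tumors. Mean red blood cell scores were lower in both hosts, by -1.50 in HET and -2.0 in WT hosts. The HET scores were 1.81, 2.03, 1.85 and 2.37 after the combination, against 5.57, 4.35, 2.38 and 1.76 after IgG. These HET groups overlapped, and HET IgG replicate 4 lay below every HET combination tumor.

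The HET tumors had no part in which genes lacked overlap between the WT groups, though they entered the filter and the spread behind each standard error and p, so genes named for their p, such as Cxcl10, were chosen partly with them. HET combination against HET IgG gave 0 of 15002 genes called by limma (0.0%) and 1472 (9.81%) at an unadjusted p under 0.05, 969 higher (6.46%) and 503 lower (3.35%). With library weights limma called 407 genes, 288 higher and 119 lower, and found 4353 at an unadjusted p under 0.05 (2198 higher, 2155 lower). With covariates that count was 786 (428 higher, 358 lower), and with L number as a factor 161. Of the 12 highest non-overlapping genes 4 were also higher in HET (over all genes 49.6%), and of the 12 lowest 5 were also lower (over all genes 50.4%). Of all 81 higher genes 32 (39.5%) and of all 138 lower genes 77 (55.8%) had the same direction in HET tumors. The 4 were Phf11d, Ifi35, Trim25 and Gimap9. Phf11d averaged 11.9 CPM after the combination and 4.46 CPM after IgG in HET tumors (log2 difference 1.44 ± 0.44 SE; limma unadjusted p = 0.00309, adjusted p = 0.308), and Ifi35 averaged 66.2 and 43.5 CPM (0.62 ± 0.27 SE; limma unadjusted p = 0.0304, adjusted p = 0.455). In HET tumors Igkc had a log2 difference of 2.31 ± 1.00 (SE; limma adjusted p = 0.451) and Cxcl10 of 1.56 ± 0.62 (SE; limma adjusted p = 0.411). Slc2a4 ran the other way in HET tumors, at -0.74 ± 0.49 (SE), with an interaction of -1.79 (limma unadjusted p = 0.0170, adjusted p = 0.99).

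**Figure D5:**
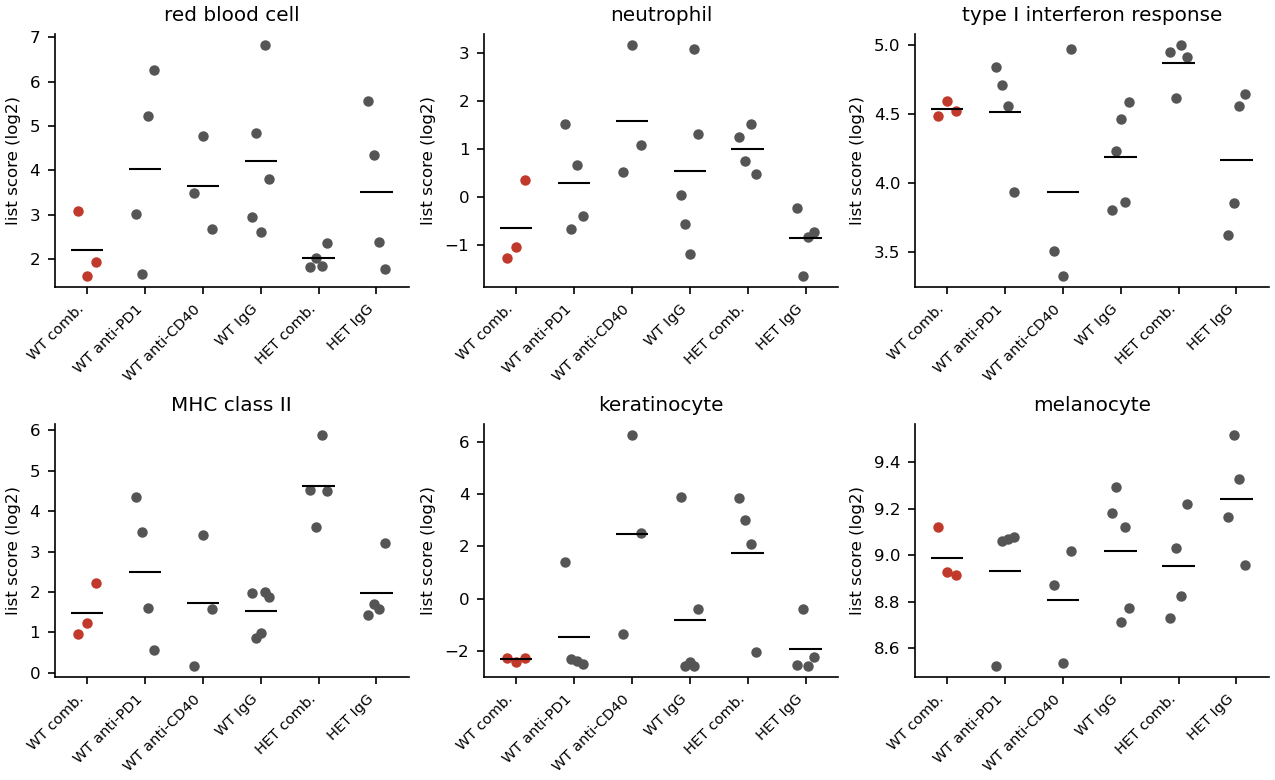
List score (mean log2 value of the members, y axis) in each library of 6 groups for 6 gene lists. Red points are WT combination libraries, grey points the other groups and bars their means; the 3 WT combination points lie close together for type I interferon and keratinocyte genes, and HET combination points are high for MHC class II genes.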

How the data were processed

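RNA of frozen subcutaneous tumors was sequenced from TruSeq libraries, per the labels' protocols. The authors deposited 1 table of log2 CPM values for 18975 genes in 30 libraries; STAR, edgeR and mm10 are named, per the submitters' processing notes, with versions and strand setting not given in the sources used here. Subtracting the value of no read (-3.64) gave whole reads for 100% of values within 0.01 reads, which fits a prior of 2 reads. The 15002 genes that exceeded a log2 of 0 in 3 or more libraries entered the tests. limma 3.58.1 in R 4.3.3 fitted 8 group means with an intensity trend, and p-values were adjusted by Benjamini-Hochberg over all genes kept. Because the deposited unit is log2, count models were not used; voom on recovered reads was an alternative.

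Samples were grouped by their titles. Within each of the 2 groups compared, no 2 libraries agreed within sampling noise. Same-numbered libraries did not deviate together, so replicates were not paired. Genes named are the antibody-related genes, the 12 highest and 12 lowest log2 differences among non-overlapping genes, the 5 smallest p in each direction, and up to 2 of each kind per list (most abundant, non-overlapping, unadjusted p under 0.05); others are said to be chosen after their values were seen, and interferon list members and Igha and Ighm are examples of their lists. Members and the 38 lists were chosen with earlier results of these data known. The limma fit was run on simulated data, with genes drawn independently and with a spread setting common to all genes. Shared shifts of skin, blood or muscle genes were not simulated, so that run, whose outcome is not given here, does not cover them. Alternatives covered filters, prior counts, scaling, samples, covariates, weights and each library left out; leaving out IgG replicates 1 and 4 together, the HET comparison, and some alternatives of the other comparisons were added after seeing the data. Gene identifiers matched GENCODE vM21 (GRCm38) for 18837 genes, which gave coordinates. Promoter sequences are RefSeq's. Some genes that met these rules are not reported here. Intervals, SE and limits on 0 reads cover these libraries and counting error only.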

Additional observations from a re-analysis of the deposited data

Results flagged for a closer look

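Among the 5 WT IgG libraries, single libraries lay far from the other 4 in 5 of 37 list scores and in 2 of 75 genes examined, by Dixon's ratio at the 95% level, which chance exceeds in about 1 in 20 groups. IgG replicate 4 stood high in the monocyte score (2.72) and in the platelet score (4.06). IgG replicate 5 stood low in the proliferation score (6.55), IgG replicate 3 high in the unfolded protein and integrated stress score (7.03), and IgG replicate 1 high in the ribosomal protein score (10.03). For single genes, IgG replicate 1 was low in Arid5b (2.12 on the log2 scale) and high in Snord104 (2.89).

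The neutrophil score was lower after the combination than after IgG in WT tumors, by -1.18, with each combination tumor below the IgG mean, and higher in HET tumors, by 1.85, with each combination tumor above the IgG mean. In WT tumors the groups overlapped, and IgG replicate 4, at 3.09, raised the IgG mean. With L number as a factor the median of the list in WT tumors was 0.24. The difference between hosts was not tested.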

How the results depend on the processing

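The count of genes past adjustment was 0 in the WT comparison under each of the 23 alternatives, and 0 in the interaction and against anti-PD1 and anti-CD40 under each of the 21, 22 and 22 run for them. In HET combination against HET IgG it was 407 with library weights and 0 under each other of the 21 alternatives, none of which left out a HET library. The count at an unadjusted p under 0.05, 62 as reported, was 118 with only the 8 libraries in the fit, 138 with no filter, 35 with a filter at log2 above 2, 251 with L number as a factor, 129 with keratinocyte and muscle scores as covariates, 400 with library weights and 100 without IgG replicates 1 and 4, and ranged over 33 to 118 with 1 library left out. With the replicate block it was 87, with 0 genes called; same-numbered libraries did not deviate together (correlations -0.02, -0.26 and -0.22). Genes without overlap numbered 219, 1146 without IgG replicates 1 and 4, and 353 to 668 with 1 library left out, since fewer libraries overlap less.

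The counts at an unadjusted p under 0.05 of the other comparisons, most of their alternatives chosen after seeing the data, moved as follows. The interaction's 525 was 820 with no filter, 298 with a filter at log2 above 2, 321 with voom, 84 with L number as a factor, 2111 with library weights, 273 without IgG replicates 1 and 4, and 309 to 640 with 1 WT library left out. Against anti-PD1, 281 was 422 with no filter, 44 with L number as a factor, 468 with covariates, 578 with library weights and 112 to 294 with 1 library left out. Against anti-CD40, 799 was 127 with covariates, 130 with library weights and 367 to 949 with 1 library left out. For HET combination against HET IgG, 1472 was 975 with the filter at log2 above 2, 161 with L number as a factor, 786 with covariates and 4353 with library weights. The cause of these shifts was not tested.

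Of 73 genes, 23 changed sign somewhere; the cause was not tested. With L number as a factor, Mmp9 was at 0.37, Wars 0.076, Cd74 3.36, Top2a -0.40, Mki67 -0.22, Hsp90aa1 -0.055, Slc2a4 -0.085, Syde2 -0.056, Galnt6 0.055, Rps6-ps4 0.27, Dynlt1-ps1 0.52, Rsad2 0.45 and Tnfrsf18 0.25. Without IgG replicates 1 and 4, Fn1 was at -0.16, Mmp9 0.16, Ifi27 -0.072, Irgm1 -0.017, Cd74 0.47 and Cd274 -0.15. With covariates, Fn1 was at -0.12, Dsp 0.29 and Cd74 0.36; with library weights Cd74 was at 0.095; with the replicate block Ctss was at -0.0084 and Cd74 at 0.0033. With 1 library left out, Fn1 ranged over -0.26 to 0.74, Cd74 -0.58 to 0.31, Cd274 -0.091 to 0.28, Ctss -0.25 to 0.41, Cd40 -0.16 to 0.23, Ifi27 -0.020 to 0.15, Tcf7 -0.12 to 0.22, Mmp9 -1.64 to 0.39, Ebf1 -0.036 to 0.51 and Sparc -0.066 to 0.52. Of 828 alternative list medians 26 moved beyond 1 SD of the list's score, 25 of them with L number as a factor.

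With 3 and 5 libraries and a median standard error of 0.27, no log2 difference passed adjustment, whatever its size (Igkc was at 2.10). Genes of a few reads per library, such as Ifng and Pdcd1, could not be compared.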
